A study of Mus musculus with 9 samples.

Results

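The 10 genes described here are Yap1, Wwtr1, Tead1, Lats2, Amotl2, Ctgf, Cyr61, Ankrd1, Ajuba and Axl, which code for components and classical targets of the YAP and TAZ pathway. They were chosen by symbol from the 24411 genes of a liver RNA count table, and all 10 were among the 11199 genes that passed the filter on low counts. Livers of 3 genotypes were compared, with 3 mice in each, all aged 3 months. The group called cont. carried Atg7 flox/flox without Cre recombinase. Atg7-KO livers carried Atg7 flox/flox;Alb-Cre. The third group, called S351A from here on, had p62 S351A/S351A in addition to these alleles, a knock-in that replaces a serine of p62 by alanine on both copies. All groups therefore shared the floxed Atg7 alleles, and S351A livers shared the loss of Atg7 with Atg7-KO livers. The albumin promoter drives Cre in hepatocytes, whereas the RNA came from whole liver and includes that of the other liver cells. ATG7 is an enzyme needed to form autophagosomes, and p62 (Sqstm1) is an autophagy receptor that binds KEAP1, the inhibitor of the antioxidant factor NRF2. For S351A replicates 2 and 3, the genotype entry of the labels names another position on a p62 allele than the title, and the titles were followed.

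YAP (gene Yap1) and its paralog TAZ (gene Wwtr1) are coactivators without a DNA-binding domain of their own, and they act on transcription mainly through the TEAD factors. The kinases of the Hippo pathway, ending in LATS1 and LATS2, phosphorylate them and hold them in the cytoplasm, while angiomotins bind them and LIM-domain proteins such as Ajuba bind LATS. In liver the pathway is known for its control of organ size and of the switch between hepatocyte and bile duct cell fates, and Ctgf, Cyr61, Ankrd1 and Axl are widely used readouts of its activity. Phosphorylation and location of the proteins were not measured here, so the values below are mRNA levels alone.

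TEAD factors are known to bind the letters GGAATG, and promoter sequence from RefSeq is printed to show where these letters stand in genes of the pathway, in 5 of the 7 whose level rose and in 2 that were not called. A RefSeq promoter of the GRCm38.p6 assembly (mm10) was found for 8 of the 10 genes; Tead1 and Ctgf had none in the table used. The letters GGAATG, or CATTCC on the other strand, stood within the 250 bases before the start of transcription in 7 of these 8 genes, the exception being Lats2. Among all 27025 genes with a promoter in the table, 14.4% had them in a window of that length, and this is a match of letters, not a measured binding site. The letters TGAGTCA or TGACTCA, of the AP-1 motif, were in none of the windows of these 8 genes when 50 bases after the start were included, against 5.95% of all genes. The following windows of 250 bases hold no annotated exon and are written on the strand of the gene with the TEAD letters in capitals. They are Wwtr1 at chr3:57575911-57576160 on the - strand (the upstream of its 2 starts), Cyr61 (named Ccn1 in RefSeq) at chr3:145649986-145650235 on the - strand, Ajuba at chr14:54577662-54577911 on the - strand and Axl at chr7:25788734-25788983 on the - strand.
Wwtr1: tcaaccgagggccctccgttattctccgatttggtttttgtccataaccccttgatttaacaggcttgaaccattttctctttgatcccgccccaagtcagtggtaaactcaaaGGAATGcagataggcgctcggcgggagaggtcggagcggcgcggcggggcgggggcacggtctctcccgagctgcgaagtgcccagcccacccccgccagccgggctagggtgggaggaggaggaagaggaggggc
Cyr61: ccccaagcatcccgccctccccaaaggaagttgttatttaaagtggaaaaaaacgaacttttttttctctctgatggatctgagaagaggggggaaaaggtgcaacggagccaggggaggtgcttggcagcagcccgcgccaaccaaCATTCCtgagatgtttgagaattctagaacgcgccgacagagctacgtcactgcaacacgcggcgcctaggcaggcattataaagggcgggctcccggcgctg
Ajuba: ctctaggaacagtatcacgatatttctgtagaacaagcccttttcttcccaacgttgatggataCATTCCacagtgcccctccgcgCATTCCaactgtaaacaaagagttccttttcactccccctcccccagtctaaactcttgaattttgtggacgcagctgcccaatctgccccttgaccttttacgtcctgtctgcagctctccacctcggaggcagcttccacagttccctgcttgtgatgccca
Axl: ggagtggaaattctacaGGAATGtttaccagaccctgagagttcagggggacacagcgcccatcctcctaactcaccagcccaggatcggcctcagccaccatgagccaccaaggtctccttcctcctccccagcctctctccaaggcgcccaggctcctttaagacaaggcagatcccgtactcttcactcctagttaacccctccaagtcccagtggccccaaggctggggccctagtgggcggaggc

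In Wwtr1 the capitals began 136 bases before the start, in Cyr61 103 bases, and in Axl 233 bases before it. Ajuba had the letters at 186 and at 164 bases. All 250 bases of the Ankrd1 window lay in an exon of the GENCODE annotation, whose gene starts further upstream than the RefSeq start used here, so the 30 bases around each of its 2 matches, at 210 and at 123 bases before the RefSeq start, are shown instead, at chr19:36120037-36120066 and chr19:36119950-36119979 on the - strand. The same is shown for Yap1 (chr9:8004720-8004749, - strand) and Amotl2 (chr9:102717727-102717756, + strand, likewise within a GENCODE exon), the pair of genes with the letters whose level was not called different in any comparison below.
Ankrd1, first: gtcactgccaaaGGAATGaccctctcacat
Ankrd1, second: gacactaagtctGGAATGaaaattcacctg
Yap1: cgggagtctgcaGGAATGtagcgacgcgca
Amotl2: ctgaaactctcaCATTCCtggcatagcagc

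The count tables held 713835 to 15426566 counts per library. The S351A libraries (713835 to 792366 counts) were the 3 smallest, which means that a low depth and the mutated p62 cannot be told apart. Atg7, the deleted gene, was at 44.9, 57.5 and 42.2 CPM (counts scaled to the library total with edgeR's TMM factors) in cont., at 29.9, 27.8 and 28.2 CPM in Atg7-KO and at 21.6, 24.6 and 22.1 CPM in S351A. It was lower in both Cre groups than in every cont. library (log2 fold changes of -0.74 and -1.07, adjusted p = 0.00758 and 0.00319, edgeR). The hepatocyte markers Alb and Ttr were abundant in every library, with Alb at 18602 CPM or more. X- and Y-linked transcripts gave 1 female and 2 males in cont. and 2 females and 1 male in each other group, so sex and genotype were not balanced. The cont. libraries differed most from each other, with a chi-square per gene of 43.7 to 119 between pairs, against 2.29 to 7.70 between pairs of a Cre group, a measure that grows with depth as well. Without any single cont. library, 7 of the 10 genes were called in Atg7-KO against cont., and 5 to 6 in S351A against cont.

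The first comparison asked how mRNAs of the pathway differ when hepatocytes lack Atg7. Of the 10 genes, 7 rose in Atg7-KO against cont. and none fell: Wwtr1, Tead1, Ctgf, Cyr61, Ankrd1, Ajuba and Axl. A gene was called when its adjusted p in edgeR's quasi-likelihood test was under 0.05 and its fold change over 1.5, and 19.9% of all genes tested were called higher by that rule and 18.1% lower (2226 and 2027 genes). With scaling by total library size instead, 4312 genes were higher and 796 lower, and the same 7 genes and Lats2 were called higher. For the same 7 genes, all 3 Atg7-KO libraries lay above all 3 cont. libraries, which held for 26.5% of all genes (25.1% in the opposite direction). The median log2 fold change of the 10 genes was 1.18, against -0.03 over all genes. In bulk liver RNA, a change in the number of cells of one type and a change in the RNA per cell cannot be told apart, and this holds for every value below.

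**Figure D1:**
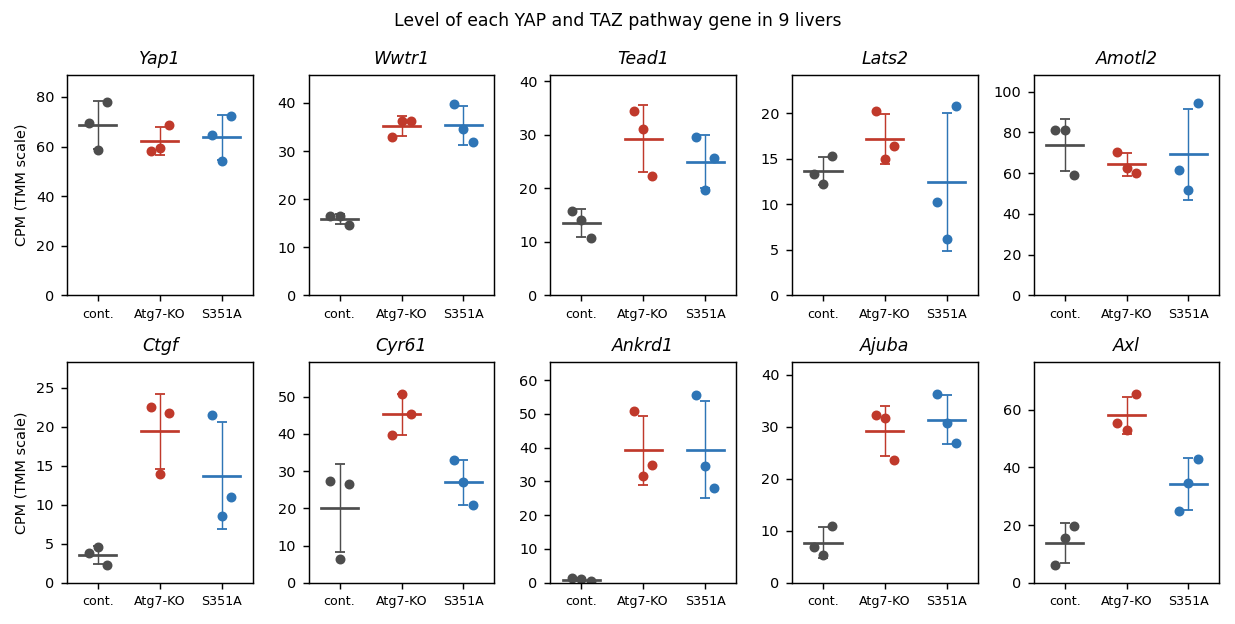
Level of each of the 10 genes in CPM (linear axes from 0, a scale for each gene) in the 3 livers of cont., Atg7-KO and S351A; points are livers, horizontal bars the mean and whiskers the SD (n = 3). The points of Wwtr1, Tead1, Ctgf, Ankrd1, Ajuba and Axl in both Cre groups lie above every cont. point, whereas those of Yap1 and Amotl2 overlap among all 3 groups.

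Of the coactivators, Wwtr1 rose and Yap1 was not called. Yap1 (mm10 chr9:7931999-8004596, - strand) was at 69.6, 58.5 and 77.8 CPM in the cont. livers, 58.4, 59.5 and 68.6 CPM in Atg7-KO and 64.7, 54.2 and 72.3 CPM in S351A. These groups overlapped, and the log2 fold change of Atg7-KO against cont. was -0.14 (95% interval -0.56 to 0.27, adjusted p = 0.583, edgeR). Wwtr1 (mm10 chr3:57455649-57575910, - strand) was at 16.5, 16.5 and 14.7 CPM in the cont. livers and at 32.9, 36.4 and 36.3 CPM in Atg7-KO. The lowest Atg7-KO liver was thus well above the highest cont. liver, and the rise was 2.24-fold (log2 1.16 ± 0.19 SE, adjusted p = 0.000477, edgeR). In S351A livers Wwtr1 was at 39.7, 34.5 and 31.9 CPM, again above every cont. liver.

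The coactivators can also be compared within each library, where no scaling between libraries is needed. The ratio of Wwtr1 counts to Yap1 counts was 0.236, 0.281 and 0.189 in cont., 0.563, 0.611 and 0.530 in Atg7-KO, and 0.614, 0.636 and 0.441 in S351A. Both Cre groups lay above every cont. library without overlap. The ratio was chosen after the levels were seen, and an exact permutation test of 3 against 3 libraries cannot go below p = 0.1, so it is given as a description. The ratios of Tead1, Ctgf, Ankrd1, Ajuba and Axl to Yap1 separated the cont. libraries from both Cre groups in the same way. Per kilobase of merged exons, Yap1 was at 7.41 ± 1.04 CPM and Wwtr1 at 3.32 ± 0.211 CPM in cont. (SD, n = 3), and in Atg7-KO they were at 6.72 ± 0.604 and 7.36 ± 0.418 CPM. On this level scale the ranges of both genes were apart in cont., with Yap1 the higher, and differed by less than the sum of their SDs in Atg7-KO.

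**Figure D2:**
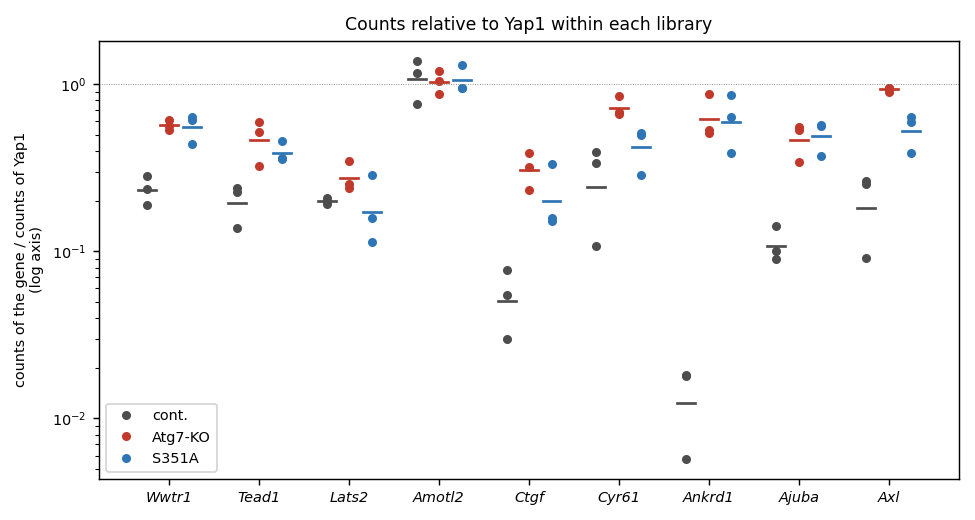
Counts of each gene divided by the counts of Yap1 in the same library (log axis), for cont., Atg7-KO and S351A; points are libraries and bars geometric means (n = 3). For Wwtr1 the cont. libraries lie between 0.189 and 0.281 and those of both Cre groups between 0.441 and 0.636, while Amotl2 ratios overlap in all groups.

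In order of level per kilobase of merged exons, the means in cont. ran from Amotl2 (11.7 CPM) through Cyr61 (9.89), Yap1 (7.41), Wwtr1 (3.32), Axl (2.75), Ajuba (2.12), Lats2 (1.96), Ctgf (1.24) and Tead1 (0.996) to Ankrd1 (0.319). Neighbours in the runs from Amotl2 to Yap1 and from Wwtr1 to Lats2 differed by less than the sum of their SDs, as did Ctgf and Tead1. In Atg7-KO the order was Cyr61 (22.4 CPM), Ankrd1 (13.6), Axl (11.5), Amotl2 (10.2), Ajuba (8.00), Wwtr1 (7.36), Ctgf (6.79), Yap1 (6.72), Lats2 (2.47) and Tead1 (2.16). Here the neighbours from Ankrd1 to Amotl2, from Ajuba to Yap1, and Lats2 and Tead1 were within the sum of their SDs.

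Tead1 (mm10 chr7:112679318-112906807, + strand), one of the DNA-binding partners of YAP and TAZ, was at 15.8, 14.0 and 10.7 CPM in the cont. livers and 34.5, 31.0 and 22.3 CPM in Atg7-KO. The groups did not overlap, and the log2 fold change was 1.18 ± 0.25 (SE, adjusted p = 0.00258, edgeR). S351A livers were at 29.5, 19.7 and 25.7 CPM, above every cont. liver and overlapping with Atg7-KO.

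Among the Hippo components that act on YAP and TAZ, Lats2 and Amotl2 were not called in any comparison, whereas Ajuba rose. Lats2 (mm10 chr14:57689662-57758388, - strand), a kinase that is itself a known feedback target of YAP, was at 13.3, 12.3 and 15.3 CPM in the cont. livers, 20.2, 14.97 and 16.4 CPM in Atg7-KO and 10.2, 6.16 and 20.8 CPM in S351A. The S351A livers spanned the whole range of the other groups, on 5 to 17 counts per library. Amotl2 (mm10 chr9:102716672-102733418, + strand), an angiomotin and likewise a known feedback target, was at 81.0, 80.9 and 59.0 CPM in the cont. livers, 70.4, 62.4 and 60.0 CPM in Atg7-KO and 61.3, 51.7 and 94.3 CPM in S351A. All groups overlapped, with a log2 fold change of -0.18 (95% interval -0.68 to 0.32, adjusted p = 0.572, edgeR) for Atg7-KO against cont. Ajuba (mm10 chr14:54567472-54577558, - strand), a LIM-domain adaptor that binds LATS kinases, went from 6.96, 5.26 and 11.0 CPM in the cont. livers to 32.2, 31.7 and 23.6 CPM in Atg7-KO. Every Atg7-KO liver was above every cont. liver, and the rise was 3.53-fold (log2 1.82 ± 0.28 SE, adjusted p = 0.000328, edgeR). Over the alternatives listed under the processing, this log2 fold change ranged from 1.59 to 2.54.

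Among the targets, Ankrd1 (mm10 chr19:36111961-36120099, - strand), which codes for an ankyrin-repeat cofactor best known from heart muscle, had the largest difference of the 10 genes. It was nearly absent from cont. libraries, at 2, 3 and 5 counts or 1.27, 1.05 and 0.446 CPM, and was at 50.8, 31.7 and 35.0 CPM in Atg7-KO. The log2 fold change was 5.79 ± 0.43 (SE, adjusted p = 2.67e-06, edgeR). Since it rests on few cont. counts, the ratio of pooled levels was also taken: 387 counts in Atg7-KO against 10 in cont. gave a ratio of 64.7 (95% interval 34.8 to 136, counting error only). Without cont. replicate 3, the deepest library and the one with the lowest Ankrd1 level, the log2 fold change was 5.05 (adjusted p = 2.75e-05, edgeR), and that of S351A against cont. was 5.05 in place of 5.80. The lowest values over all alternatives listed under the processing were 4.42 and 4.46. Per kilobase of merged exons, Ankrd1 had the lowest mean level of the 10 genes in cont. (0.319 ± 0.147 CPM, SD, n = 3) and the second highest mean in Atg7-KO (13.6 ± 3.54 CPM), after Cyr61 (22.4 ± 2.74 CPM). Its neighbour in the Atg7-KO order, Axl at 11.5 ± 1.30 CPM per kilobase, was within the spread of Ankrd1.

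Ctgf (Ccn2, mm10 chr10:24595442-24598683, + strand), a secreted matricellular protein, was at 3.80, 4.55 and 2.32 CPM in the cont. livers and at 22.5, 13.9 and 21.8 CPM in Atg7-KO. The groups did not overlap, and the log2 fold change was 2.58 ± 0.39 (SE, adjusted p = 0.000317, edgeR). Cyr61 (mm10 chr3:145646976-145649981, - strand), its CCN family relative, was at 27.2, 6.31 and 26.4 CPM in the cont. livers and 39.6, 50.6 and 45.4 CPM in Atg7-KO. The cont. liver with the low value was the female one of that group. The log2 fold change of Cyr61 was 1.17 ± 0.38 (SE, adjusted p = 0.0284, edgeR) and 1.49 (adjusted p = 0.00972, edgeR) with sex as a covariate, and 0.75 (adjusted p = 0.0218, edgeR) without that liver, but the call was lost when any one of the 3 Atg7-KO libraries was left out (adjusted p = 0.0535, 0.0893 and 0.0734 without replicates 1, 2 and 3). Axl (mm10 chr7:25757273-25788705, - strand), a receptor tyrosine kinase, was at 6.33, 15.4 and 19.7 CPM in the cont. livers and 55.4, 53.1 and 65.4 CPM in Atg7-KO. All Atg7-KO livers exceeded all cont. livers, with a 3.88-fold rise (log2 1.96 ± 0.30 SE, adjusted p = 0.00039, edgeR).

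The second comparison asked whether the p62 mutation, on the background without Atg7, moved the pathway back towards cont. None of the 10 genes was called in S351A against Atg7-KO, against 0% of all genes called higher and 0.00893% called lower by edgeR. At an unadjusted p under 0.05 there was 1 of the 10 genes, Axl, against 6.60% of all genes, and DESeq2 and limma-voom likewise called none of the 10. Axl was at 24.98, 34.5 and 42.9 CPM in S351A, below every Atg7-KO liver and above every cont. liver. Its log2 fold change against Atg7-KO was -0.76 (95% interval -1.46 to -0.07, unadjusted p = 0.0333, adjusted p = 0.742, edgeR). Cyr61, at 32.9, 27.1 and 20.8 CPM in S351A, was also below every Atg7-KO liver, with a log2 fold change of -0.74 (95% interval -1.65 to 0.18, adjusted p = 0.838, edgeR). Of all genes, 9.34% were without overlap in that direction and 7.59% in the other, beside 2 and 0 of the 10 genes, a number from which nothing was read.

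The intervals of the other members show how large a difference these libraries could have missed. For Wwtr1 the log2 fold change of S351A against Atg7-KO was 0.01, with a 95% interval from -0.41 to 0.44. For Ankrd1, at 55.6, 34.5 and 28.2 CPM in S351A, it was 0.01 (-0.64 to 0.66), and for Ajuba, at 36.3, 30.8 and 27.0 CPM, it was 0.10 (-0.51 to 0.71). The ranges of the Cre groups overlapped for these 3 genes, and their intervals lay short of the log2 differences from cont. of 1.16, 5.79 and 1.82. The interval of Ctgf was wider, from -1.33 to 0.35 around -0.49, with S351A livers at 21.6, 8.62 and 11.0 CPM on 7 to 19 counts per library. Those of Tead1 (-0.81 to 0.34), Lats2 (-1.27 to 0.31), Amotl2 (-0.42 to 0.63) and Yap1 (-0.39 to 0.47) all held 0.

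**Figure D3:**
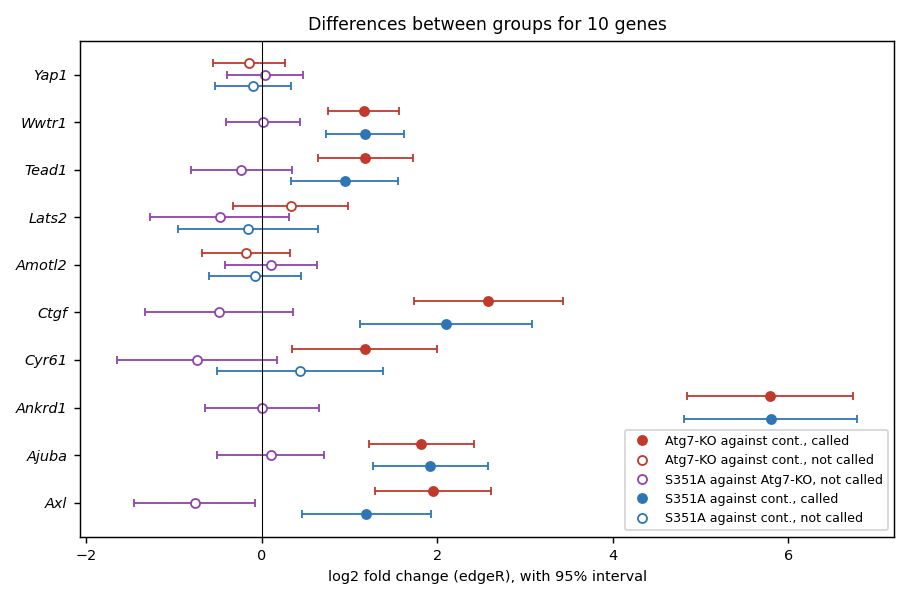
Log2 fold change of each of the 10 genes in the 3 comparisons, with 95% intervals from edgeR; filled points were called and open points were not (n = 3 livers per group). The largest values are those of Ankrd1 against cont., at 5.79 and 5.80, and all points of S351A against Atg7-KO are open.

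The third comparison set S351A against the same cont. libraries, so it is not independent of the first. Of the 10 genes, 6 rose and none fell, where 15.6% of all genes were called higher and 13.0% lower (1748 and 1460 genes, or 3541 and 510 by total library size). The same 6 genes were above every cont. liver in each S351A liver, as were 19.3% of all genes, and 18.7% were below. The values side by side, Atg7-KO first and S351A second, were log2 5.79 and 5.80 for Ankrd1, 2.58 and 2.10 for Ctgf, 1.82 and 1.92 for Ajuba, 1.96 and 1.19 for Axl, 1.16 and 1.18 for Wwtr1, 1.18 and 0.95 for Tead1, and 1.17 and 0.43 for Cyr61. Cyr61 was the one gene called in the first comparison and not in the third (adjusted p = 0.488, edgeR), and the direct test between the Cre groups above did not call it. The adjusted p of the 6 called genes lay between 9.52e-06 for Ankrd1 and 0.0241 for Tead1 (edgeR). Tead1 lost the call without cont. replicate 3 (adjusted p = 0.0856) and without S351A replicates 1 or 3 (0.115 and 0.0538), and Axl without S351A replicates 2 or 3 (0.0669 and 0.0779). With every library thinned to the size of the smallest, the third comparison called 5 of the 10 genes, Tead1 being lost (adjusted p = 0.0994, edgeR), and the first comparison called 7.

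Further targets of YAP and TAZ, taken from a list of 22 genes, were described by their counts. Of its 17 tested genes, 11 rose in Atg7-KO against cont. (64.7%, against 19.9% of all genes), 6 were not called and none fell (against 18.1%), and the median of the 17 was 1.51 (log2). With at least 10 counts required in every library, 8 were tested and 5 rose (median 1.56). Genes that were low in cont., among them Tgfb2 and Ptpn14, passed the filter through their level in the Cre groups. Tgfb2, a secreted growth factor of the TGF-beta family, was at 1.27, 0.350 and 0.178 CPM in the cont. livers, on 1 or 2 counts each, and at 17.7, 16.8 and 14.1 CPM in those of Atg7-KO. The ratio of its pooled levels was 51.9 (95% interval 21.7 to 162, counting error only), and its log2 fold change was 5.41, or 4.45 without cont. replicate 3. Ptpn14, a phosphatase that is itself known to bind YAP, was at 0.633, 2.80 and 1.87 CPM in the cont. livers and 23.9, 18.2 and 20.9 CPM in Atg7-KO (log2 3.44, adjusted p = 9.33e-05, edgeR). Neither gene overlapped between these groups.

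Ccdc80, which codes for an extracellular matrix protein, rose by 3.29 on the log2 scale, and Myof, coding for the membrane repair protein myoferlin, by 3.27 (adjusted p = 0.000267 and 2.99e-05, edgeR). Rbms3, an RNA-binding protein gene, rose by 2.15, and Nt5e, coding for the surface nucleotidase CD73, by 1.85 (adjusted p = 0.000523 and 0.00661, edgeR). Without cont. replicate 2 the value of Nt5e was 2.83. The calls of these 6 genes held under each alternative in which they were tested, whereas those of Thbs1, Birc5, Jag1 and Arhgef17, named after their values were seen, were lost under 5, 3, 1 and 1 of 17 to 19 alternatives. In S351A against Atg7-KO none of the 17 genes was called (median log2 fold change -0.08, 1 gene at an unadjusted p under 0.05), and in S351A against cont. 9 rose (52.9%, against 15.6% of all genes) and none fell (against 13.0%).

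For the Hippo regulators the calls went in both directions, in shares near those of all genes. The list also holds TEAD factors, so the calls of Tead2 and Tead3 below are not those of regulators acting on YAP and TAZ. With scaling by total library size, 8 genes of the list rose and none fell in Atg7-KO against cont., and 6 and none in S351A against cont. Of 18 tested genes on a list of 23, 5 rose (27.8%, against 19.9% of all genes), 3 fell (16.7%, against 18.1%) and 10 were not called in Atg7-KO against cont., and the median was 0.14 (log2). Map4k4, a kinase that can phosphorylate LATS, rose from 17.1, 20.0 and 18.4 CPM to 101, 74.1 and 72.7 CPM (log2 2.16, adjusted p = 3.01e-05, edgeR). Every Atg7-KO liver was at more than 3 times any cont. liver. Amot, the founding angiomotin, rose by 1.76 (adjusted p = 0.00103), Wtip, an Ajuba family adaptor, by 1.29 (adjusted p = 0.0229), and Frmd6, an upstream FERM-domain protein, by 1.07 (adjusted p = 0.0492, edgeR). Those that fell were Lats1 (log2 -1.03, adjusted p = 0.00572), Tead3 (-0.97, 0.0136) and Wwc1, which codes for the scaffold KIBRA (-0.77, 0.0271, edgeR).

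Map4k4 and Amot kept their calls under each alternative, whereas the calls of Frmd6, Wtip, Wwc1, Tead3 and Lats1 were lost under 9, 3, 5, 3 and 1 of the 17 to 19 alternatives tried. The log2 fold change of Amot ranged from 1.57 to 3.03 over the alternatives. In place of 8 genes of the list, 5 were called when cont. replicate 3 or Atg7-KO replicate 1 was left out, and 3 when Atg7-KO replicate 3 was. With scaling by total library size, which moved the median of all genes up by 0.547, Lats1, Tead3 and Wwc1 were at -0.48, -0.41 and -0.21 and were not called. The fifth gene that rose, Tead2, was named after its values were seen, at 0.633, 3.15 and 1.07 CPM in the cont. livers and 7.82, 2.49 and 3.63 CPM in Atg7-KO. Its groups overlapped and it lost the call under 8 alternatives. In S351A against Atg7-KO none of the 18 was called (1 at an unadjusted p under 0.05), and in S351A against cont. 4 rose (22.2%, against 15.6% of all genes) and 1 fell (5.56%, against 13.0%). Without S351A replicate 1 these counts were 1 and 0. Stk3 and Stk4, the MST kinases at the head of the core cascade and named outside the rule on called genes, were at log2 0.19 and -0.17 in Atg7-KO against cont. and were not called in any comparison, but by total library size Stk3 was called (log2 0.73, adjusted p = 0.0467, edgeR) and Stk4 was at 0.36.

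**Figure D4:**
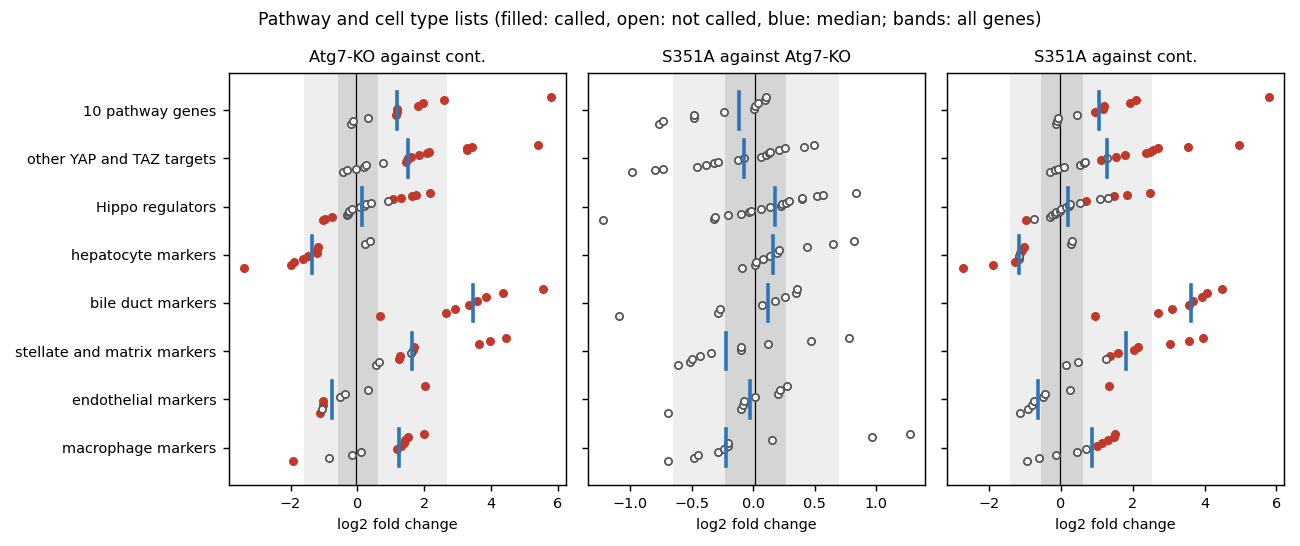
Log2 fold change of the tested genes of each list in the 3 comparisons (the middle panel has a narrower axis); filled points were called, open points were not, and blue bars are list medians. Grey bands hold the middle 50% and 90% of all genes; the 10 genes and the further targets lie mostly to the right in the comparisons with cont., with medians of 1.18 and 1.51 in Atg7-KO, where bile duct markers have a median of 3.45 and hepatocyte markers of -1.36.

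Bile duct, stellate and macrophage markers rose in larger shares than the 19.9% of all genes called higher in Atg7-KO against cont. (18.1% were lower). Of the bile duct markers, all 8 tested of 10 rose in Atg7-KO against cont. (median log2 fold change 3.45), and their summed level was 78.1 to 128 CPM in the cont. livers, 900 to 1292 CPM in Atg7-KO and 821 to 1282 CPM in S351A. Markers that were low in cont. passed the filter through their level in the Cre groups. With at least 10 counts required in every library, 3 were tested and all 3 rose (median 3.01). After thinning to the smallest library, 5 were tested and 4 rose. The defining bile duct keratins were low, so the sums in Atg7-KO came mostly from other genes of the list. Krt19 was at 3.80, 0.701 and 0.803 CPM in the cont. livers and 16.6, 9.62 and 11.4 CPM in Atg7-KO, and Krt7 did not exceed 10.2 CPM in any liver. Stellate and matrix markers rose in 7 of 10 cases (median 1.64), with summed levels of 296 to 595, 1328 to 1796 and 1209 to 1728 CPM in the cont. livers, Atg7-KO and S351A, and Col1a1 went from 10.1, 5.61 and 1.34 to 96.6, 84.1 and 96.3 CPM and Col1a2 from 25.9, 21.0 and 12.3 to 317, 276 and 310 CPM. The other 3, Acta2, Lrat and Reln, were not called (log2 1.60, 0.56 and 0.66, adjusted p = 0.0959, 0.243 and 0.0961, edgeR). By total library size all 10 were called higher. Macrophage markers rose in 6 of 10 cases and fell in 1, the Kupffer cell gene Timd4, while Clec4f, of the same cells, was not called (log2 -0.16), with summed levels of 219 to 342, 416 to 512 and 354 to 360 CPM.

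Of the endothelial markers 1 of 8 was called higher (12.5%, against 19.9% of all genes) and 3 lower (37.5%, against 18.1%), with summed levels that overlapped between the groups (137 to 244, 161 to 184 and 139 to 187 CPM). The number lower was 1 without Atg7-KO replicate 1 or replicate 2, and 5 without cont. replicate 1. Pecam1, a first marker of these cells, was at log2 0.33 and was not called. Kdr, another, was at -1.05 with an adjusted p of 0.0528 (edgeR), close to the threshold, and was called lower under 6 of 17 alternatives. None of the 6 mesothelial markers passed the filter on low counts, and their sum did not exceed 15.9 CPM, with Msln and Upk3b at 4 counts or fewer in every library. Hepatocyte markers fell in 8 of 10 cases (median -1.36, 80% against 18.1% of all genes), and the other 2 were not called. With scaling by total library size, 2 hepatocyte markers were called higher and 7 lower, and no endothelial marker was called lower. The 10 genes of the pathway are expressed in several of these cell types, and the part of the change in cell markers in the changes of Wwtr1, Tead1, Ctgf, Cyr61, Ankrd1, Ajuba and Axl was not tested.

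**Figure D5:**
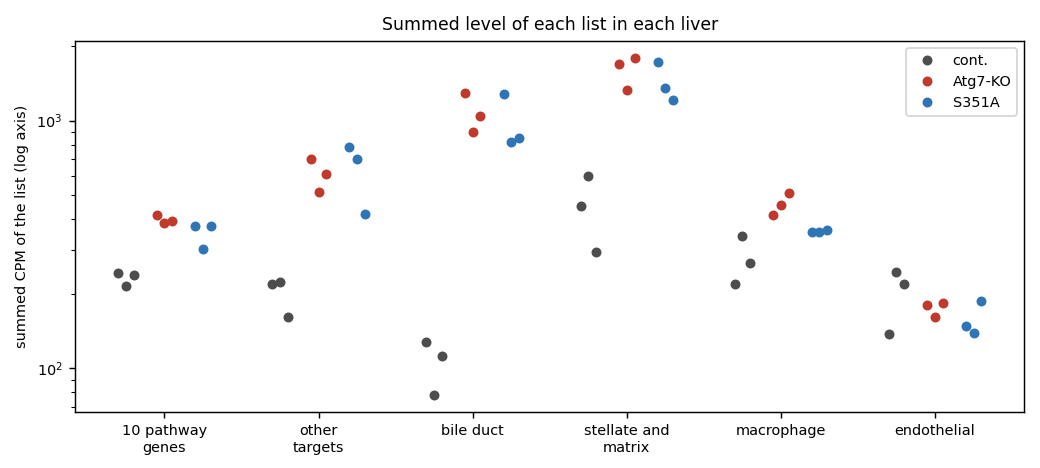
Summed CPM of each list in each liver (log axis), for cont., Atg7-KO and S351A. Sums of the 10 pathway genes lie at 215 to 242 CPM in the cont. livers, 385 to 417 CPM in Atg7-KO and 302 to 377 CPM in S351A, and those of bile duct and of stellate and matrix markers also separate cont. from both Cre groups.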

How the data were processed

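RNA-seq of poly(A) RNA from 9 livers of mice was used. The authors trimmed reads with Trim Galore, mapped them to mm10 with STAR and deposited RSEM expected counts, which are estimated read counts per gene without scaling between libraries; versions, annotation and strand setting are not given in the sources used here. Between 4.40% and 7.75% of values per library were not whole, and all were rounded. Columns named WT, LKO and LKOSA were matched to cont., Atg7-KO and S351A by genotype and replicate number. The labels name an RNeasy kit and the methods another extraction.

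The tool was edgeR 4.0.16 under R 4.3.3, with filterByExpr (minimum count 10, minimum total 15), TMM factors, and quasi-likelihood tests on 1 model of the 3 groups over all 9 libraries. Adjusted p-values are Benjamini-Hochberg over 11199 genes, and a gene was called under 0.05 with a fold change over 1.5. Standard errors and 95% intervals are those implied by the test statistic and its degrees of freedom. Each sample is a mouse. Gene positions came from GENCODE for mm10. Unstranded counting cannot separate Yap1, Wwtr1, Tead1, Lats2 or Ctgf from overlapping noncoding genes. A count of 3 equalled 0.268 to 3.70 CPM, and intervals from counts cover counting error only, since reads carry no molecular identifiers. Replicates differed by more than sampling noise, the cont. libraries most. On simulated counts for Atg7-KO against cont. (11199 genes, 50 changed at each fold), 26.5% of 2-fold and 92% of 4-fold changes were recovered. Far fewer genes were changed there than were called in the data, so these shares do not carry over directly. No simulation was run for S351A against Atg7-KO.

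The members and lists were chosen with earlier results of these data known. Named were all members, called genes of the regulator and target lists (up to 6 per list and direction, by log2 fold change, if the higher group had a mean of 5 CPM or more) and the first 2 markers of a cell type. Stk3, Stk4, Tead2, Thbs1, Birc5, Jag1, Arhgef17, Acta2, Lrat and Reln were named after their values were seen. Alternatives were RLE size factors, total library size, no low-count filter, a minimum of 10 counts in all libraries, DESeq2 1.42.0, limma 3.58.1 with voom, the 6 compared libraries alone, a replicate block, sex as a covariate, binomial thinning to the smallest library, and leaving out each library. Ratios to Yap1 were added after seeing the data.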

Additional observations from a re-analysis of the deposited data

How the results depend on the processing

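Over all alternatives, 5 to 8 of the 10 genes were called in Atg7-KO against cont., 4 to 6 in S351A against cont. and 0 in S351A against Atg7-KO. A minimum of 10 counts in every library gave 5 and 4 because Ankrd1 and Ctgf were then not tested. Wwtr1, Tead1, Ctgf, Ankrd1, Ajuba and Axl kept their call in Atg7-KO against cont. under each alternative that tested them. Lats2 was called there with total library size alone (log2 0.89, adjusted p = 0.0335, edgeR). That scaling moved the median of all genes by 0.547, and by 0.496 in S351A against cont., where dropping the filter moved it by -0.104.

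Of the further targets, 5 were called in Atg7-KO against cont. with 10 counts in every library and 7 after thinning, in place of 11, with fewer genes tested. Of the Hippo regulators, 4 were called after thinning and 5 with 10 counts in every library, in place of 8, and in S351A against cont. 2 with the 6 libraries alone, in place of 5.

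Genes called over the whole table in Atg7-KO against cont. numbered 2504 with at least 10 counts in every library and 2614 after thinning to the smallest library. In S351A against Atg7-KO they numbered 98 without a filter, 40 with DESeq2, 10 with the 6 compared libraries alone, 2 after thinning, and 0 with limma-voom or with 10 counts in every library, and 0 to 3 when 1 library was left out. In S351A against cont. they numbered 1941 with 10 counts in every library, 1849 with the 6 libraries alone and 2086 after thinning, and 2098 to 3572 when 1 library was left out, the lowest without S351A replicate 1.

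Signs turned only for log2 fold changes that were not called, and the cause was not tested. With total library size Yap1 and Amotl2 were at 0.40 and 0.35 in Atg7-KO against cont., Yap1, Lats2 and Amotl2 at 0.40, 0.36 and 0.41 in S351A against cont., and Yap1, Wwtr1 and Ankrd1 at -0.0056, -0.037 and -0.051 in S351A against Atg7-KO. After thinning, Yap1, Lats2 and Amotl2 were at 0.20, -0.11 and 0.060 in Atg7-KO against cont., Yap1 at 0.13 in S351A against cont., and Yap1 and Amotl2 at -0.070 and -0.064 in S351A against Atg7-KO. In that last comparison Yap1, Wwtr1 and Ankrd1 were at -0.015, -0.043 and -0.048 without a filter, and Wwtr1 at -0.0037 with 10 counts in every library. With 1 library left out, it ranged from -0.063 to 0.15 for Yap1, -0.085 to 0.079 for Wwtr1, -0.19 to 0.28 for Amotl2, -0.33 to 0.24 for Ankrd1 and -0.028 to 0.19 for Ajuba. In S351A against cont., Lats2 ranged from -0.75 to 0.14 and Amotl2 from -0.38 to 0.070.

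Samples with the same replicate number did not deviate together in every pair (correlations of -0.0415 to 0.306 across genes, against -0.265 to 0.212 for different numbers). Only the cont. and Atg7-KO pair of replicate 3 was negative among those of the same number. Replicate 1 was male and replicate 2 female in all groups. Not every sample correlated best with its own number, so the numbers were not taken as pairs. With the replicate number as a block, 7, 0 and 6 of the 10 genes were called in Atg7-KO against cont., S351A against Atg7-KO and S351A against cont., among 4313, 1 and 3406 genes in all, and Ankrd1 was at -0.0050 in S351A against Atg7-KO.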

Other observations

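Relatives of the 10 genes, looked up after the values above were seen, add to the picture. Gas6, the ligand of AXL, was at 36.1, 71.8 and 24.1 CPM in the cont. livers, at 235, 188 and 218 CPM in Atg7-KO and at 276, 136 and 221 CPM in S351A. Its groups against cont. did not overlap, with log2 fold changes of 2.29 and 2.28 (adjusted p = 0.000583 and 0.00114, edgeR). Mertk, the receptor of the same family known from macrophages, was lower in Atg7-KO than in cont. (10.8, 15.8 and 24.3 against 5.52, 7.13 and 5.00 CPM, log2 -1.58, adjusted p = 0.00364, edgeR), the opposite direction to Axl. Pros1, a further ligand, was not called (log2 0.41, adjusted p = 0.0912, edgeR), and Tyro3, the third receptor, did not pass the filter on low counts.

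The CCN family members Wisp1 and Wisp2 rose with Ctgf. Wisp1 was at 2.53, 7.01 and 2.23 CPM in the cont. livers, 33.1, 31.4 and 32.3 CPM in Atg7-KO and 30.7, 34.5 and 15.9 CPM in S351A (log2 3.15 and 2.90 against cont., adjusted p = 8.88e-05 and 0.000571, edgeR). Wisp2 had 4 counts in all cont. libraries together and 193 in Atg7-KO, a ratio of pooled levels of 80.7 (95% interval 31.0 to 299, counting error only). In Atg7-KO it was at 18.4, 24.2 and 20.4 CPM. In S351A it was lower, at 15.9, 4.93 and 8.58 CPM on 4 to 14 counts. That difference was not called (log2 -1.08, adjusted p = 0.696, edgeR), whereas S351A against cont. was (log2 5.04, adjusted p = 0.000244, edgeR). Without cont. replicate 2 the log2 fold changes of Wisp1 in Atg7-KO and S351A were 3.79 and 3.53, and that of Wisp2 in Atg7-KO, 6.11 with all libraries, was 6.74, or 5.37 without cont. replicate 3. Nov, a CCN gene too, had at most 1 count in any library. Ankrd23, a relative of Ankrd1, was not called (log2 -0.26, adjusted p = 0.635, edgeR), and Ankrd2 did not pass the filter.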
